A study of Mus musculus with 2 samples.

Results

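Potassium channel genes were taken as the protein-coding genes of the mouse annotation GENCODE M21 whose symbol starts with Kcn, 94 of 21951 protein-coding genes. EGR1 ChIP-seq peaks of frontal cortex (build mm10) were counted for a gene when the peak centre lay in the gene body or within 10 kb of any of its transcription start sites (TSSs), and 122 of the 12014 peaks met this rule. The frontal cortices came from male 129SvEv/C57BL/6N F1 hybrid mice aged 6 weeks, with no treatment named and the tissue of several mice pooled for each ChIP. The 2 replicate experiments were merged by the authors into a single peak list, each peak with an irreproducible discovery rate (IDR). This value is low where the peak ranked alike, and near the top by signal, in both replicates. The input DNA control was not analysed here, and since no value per replicate was used, the results below are counts and shares without a test between conditions. Shares carry 95% Wilson intervals that cover counting over genes or peaks only. Neighbouring peaks share a gene and members of a subfamily share ancestry, so genes and peaks were not replicates.

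Potassium channels let potassium leave the cell and so set the resting potential, end the action potential and shape firing rate. Voltage-gated channels open on depolarisation, inward rectifiers and two-pore domain channels hold the membrane near rest, and calcium-activated channels follow firing with a hyperpolarisation. EGR1 is a zinc finger transcription factor induced by neuronal activity that binds GC-rich DNA, and its classical motif was searched here as GCGTGGGCG or GCGGGGGCG on either strand.

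A selection of the peaks that hold this motif and overlap no annotated untranslated region, taken in order of IDR from 3.39e-08 (Kcnn1) to 0.000177 (Kcnk3), shows what such a site at a potassium channel gene looks like. They are written 5′ to 3′ on the plus strand of mm10 with the motif, or its reverse complement, in capitals. The Kcnn1 peak (chr8:70865655-70865804) lay 2471 bp upstream of a TSS of the gene, the Kcnj4 peak (chr15:79503312-79503465) in an intron, the Kcnd2 peak (chr6:21214712-21214913) upstream of the start, the Kcnt2 peak (chr1:140245576-140245839) upstream of the start, the Kcnj12 peak (chr11:61022992-61023255) in an intron and the Kcnk3 peak (chr5:30622397-30622646) in an exon. The Kcnk3 peak held 2 overlapping copies of the T form in tandem.
Kcnn1: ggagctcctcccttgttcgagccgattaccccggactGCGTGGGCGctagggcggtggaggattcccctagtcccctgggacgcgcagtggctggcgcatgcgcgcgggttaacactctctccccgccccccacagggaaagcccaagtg
Kcnj4: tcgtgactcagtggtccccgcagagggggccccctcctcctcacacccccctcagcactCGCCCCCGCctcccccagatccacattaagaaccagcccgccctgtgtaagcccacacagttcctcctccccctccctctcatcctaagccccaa
Kcnd2: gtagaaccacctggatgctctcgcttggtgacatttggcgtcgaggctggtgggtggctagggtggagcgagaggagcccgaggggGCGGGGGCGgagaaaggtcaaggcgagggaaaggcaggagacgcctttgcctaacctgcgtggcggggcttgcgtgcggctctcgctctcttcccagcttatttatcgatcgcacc
Kcnt2: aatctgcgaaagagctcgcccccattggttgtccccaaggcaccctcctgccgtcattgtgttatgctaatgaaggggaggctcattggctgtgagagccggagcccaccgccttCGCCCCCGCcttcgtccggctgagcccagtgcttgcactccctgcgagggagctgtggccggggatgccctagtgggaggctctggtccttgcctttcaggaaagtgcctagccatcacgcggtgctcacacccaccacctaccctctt
Kcnj12: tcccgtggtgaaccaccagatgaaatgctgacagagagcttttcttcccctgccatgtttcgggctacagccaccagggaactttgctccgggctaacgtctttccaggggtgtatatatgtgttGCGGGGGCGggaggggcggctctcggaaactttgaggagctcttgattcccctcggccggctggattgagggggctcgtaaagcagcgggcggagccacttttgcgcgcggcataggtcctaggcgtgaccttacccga
Kcnk3: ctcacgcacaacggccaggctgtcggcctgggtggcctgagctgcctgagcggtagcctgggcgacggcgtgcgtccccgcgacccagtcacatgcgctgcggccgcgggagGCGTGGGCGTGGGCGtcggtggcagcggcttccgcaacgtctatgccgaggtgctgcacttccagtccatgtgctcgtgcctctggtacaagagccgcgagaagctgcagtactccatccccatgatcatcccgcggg

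Other peaks with a low IDR lacked the exact motif. The 3 shown were chosen after their values were seen. The intronic Kcnab2 peak (chr4:152453249-152453423) held a single word 1 base away from the motif, in capitals as its reverse complement. Of the intronic Kcnq3 peaks, the one 36214 bp from the nearest TSS of the gene (chr15:66249743-66249932) held no such word, and the one 1449 bp from an internal TSS (chr15:66101753-66101857) held 2, also in capitals.
Kcnab2: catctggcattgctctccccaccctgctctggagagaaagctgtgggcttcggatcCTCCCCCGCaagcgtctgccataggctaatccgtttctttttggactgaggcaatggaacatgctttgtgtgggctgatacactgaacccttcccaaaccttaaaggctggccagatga
Kcnq3 at 36214 bp: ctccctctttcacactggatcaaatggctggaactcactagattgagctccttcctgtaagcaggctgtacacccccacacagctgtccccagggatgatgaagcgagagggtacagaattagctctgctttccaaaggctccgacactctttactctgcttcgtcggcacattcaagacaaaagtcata
Kcnq3 at 1449 bp: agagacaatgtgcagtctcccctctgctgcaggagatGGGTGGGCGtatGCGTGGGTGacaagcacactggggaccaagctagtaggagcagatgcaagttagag

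A peak was assigned to 59 of the 94 potassium channel genes (62.8%, interval 52.7 to 71.9). Among the 21857 other protein-coding genes the share was 39.5% (38.8 to 40.1), and the intervals did not overlap. A peak within 2 kb of a TSS was found at 44 potassium channel genes (46.8%, 37.0 to 56.8) against 29.5% of the other genes. Several peaks were held by a larger share too, 2 or more at 34 genes (36.2%, 27.2 to 46.2) against 13.6%, and 4 or more at 8 genes (8.51%, 4.38 to 15.9) against 1.81%. The remaining 15 genes with a peak had peaks only beyond 2 kb of every TSS. No peak was assigned to more than 1 potassium channel gene. Just inside the 10 kb limit were a Kcnk3 peak at 9209 bp and the Kcnrg peak at 8000 bp, and just outside it were the peaks nearest to Kcna7 (10268 bp) and Kcnk7 (11615 bp).

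Long genes can hold more peaks by their size, and potassium channel genes were longer, with a median of 30.8 kb against 17.4 kb. Within classes of length the share with a peak was 56.5% of 23 potassium channel genes under 10 kb against 27.3% of other genes of that length, and 54.3% of 35 against 40.7% from 10 to 50 kb. It was 69.2% of 13 against 51.3% from 50 to 100 kb, 60.0% of 5 against 57.2% from 100 to 200 kb, and 83.3% of 18 against 68.0% at 200 kb and over. The point estimate was higher in each of these 5 classes, while only in the shortest class did the interval (36.8 to 74.4) leave out the share of the other genes. For a peak within 2 kb of a TSS it was lower from 100 to 200 kb (40.0% of 5 against 42.2%) and higher in the remaining classes. Per unit of sequence searched, the potassium channel genes held 10.6 peaks per Mb and the other genes 8.26.

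**Figure D1:**
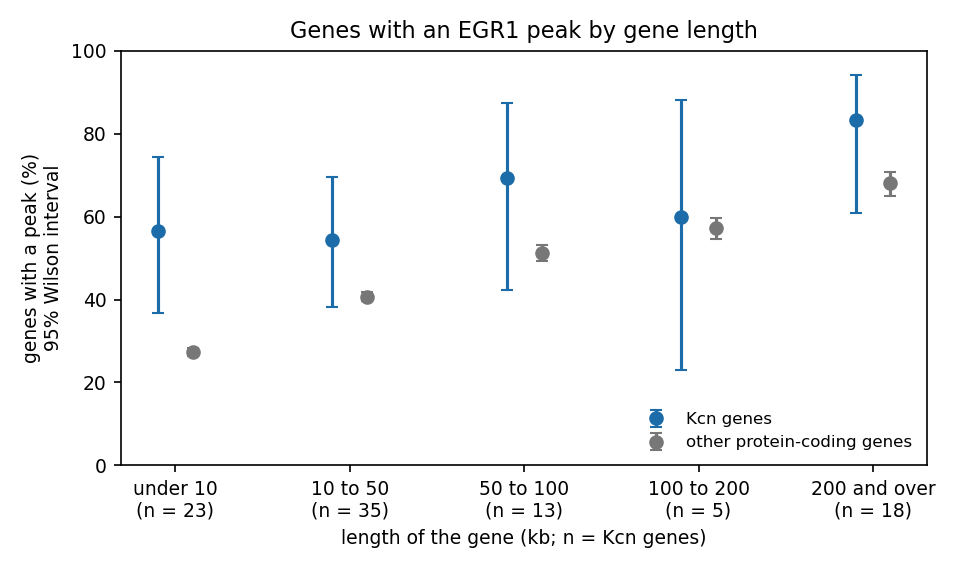
The share of genes with an EGR1 peak (percent, vertical axis) is plotted by class of gene length (kb, horizontal axis) for potassium channel genes (blue) and other protein-coding genes (grey), with bars for the 95% Wilson interval. The potassium channel genes lie above the others in all 5 classes, from 56.5% against 27.3% under 10 kb to 83.3% against 68.0% at 200 kb and over, and their interval clears the grey point only under 10 kb.

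EGR1 peaks are frequent at CpG-rich starts, so the genes were also split by the sequence within 500 bp of the 5′ end of the gene, with a CpG ratio (observed over expected) of 0.6 and a GC content of 55% or more called CpG-rich. This split was added after the values were seen. CpG-rich starts were about as common in potassium channel genes (35 genes, 37.2%) as in other genes (38.3%). A peak was assigned to 29 of the 35 (82.9%, 67.3 to 91.9) against 61.6% of other genes with such a start, and to 30 of the 59 with another start (50.8%, 38.4 to 63.2) against 25.8%. Within potassium channel genes the median CpG ratio at the start was 0.612 in those with a peak and 0.319 in those without. The 6 genes with a CpG-rich start and no peak were Kcng3, Kcnh2, Kcnk1, Kcnk5, Kcnk12 and Kcnk15.

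The 9 subfamilies ranged from 5 of 5 KCNQ genes (interval 56.6 to 100) to 8 of 17 auxiliary subunit genes (47.1%, 26.2 to 69.0) with a peak. EAG and ERG genes followed KCNQ with 7 of 8 (87.5%, 52.9 to 97.8), then the Slo family with 3 of 4 (75%, 30.1 to 95.4) and Kv1 to Kv4 with 12 of 17 (70.6%, 46.9 to 86.7). Modifier Kv subunits had 6 of 10 (60.0%, 31.3 to 83.2) and inward rectifiers 9 of 15 (60.0%, 35.7 to 80.2). Two-pore domain channels had 7 of 14 (50%, 26.8 to 73.2) and the small and intermediate calcium-activated channels (SK and IK) 2 of 4 (50%, 15 to 85). All 9 intervals overlapped one another, so no order among neighbouring subfamilies was resolved, and those of Kv1 to Kv4, EAG and ERG, and KCNQ lay above the 39.5% of other genes. KCNQ and EAG and ERG genes were long, with medians of 300.3 and 156.1 kb, and the shares of other genes of 200 kb and over (68.0%) and of 100 to 200 kb (57.2%) lay inside their intervals. With 10 kb of a TSS alone, 3 of 5 KCNQ genes had a peak (37.1% of other genes), and at an IDR of 0.001 or less 4 of 8 EAG and ERG genes did (28.8%).

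**Figure D2:**
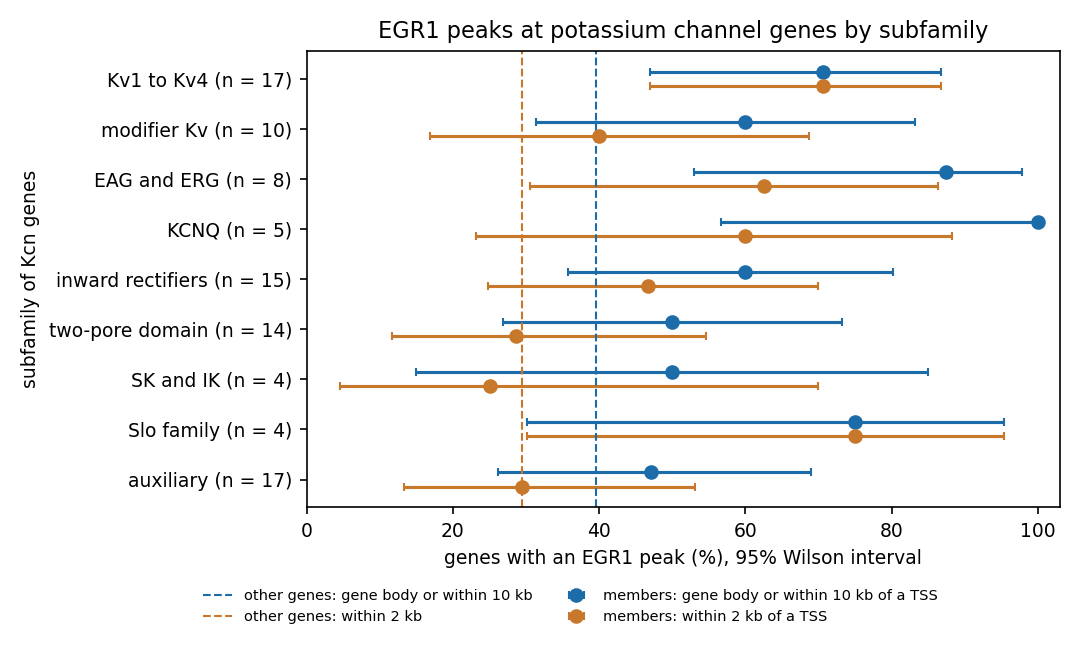
Each row is a subfamily of potassium channel genes, the horizontal axis gives the percent of its genes with an EGR1 peak in the gene body or within 10 kb of a TSS (blue) or within 2 kb (orange) with 95% Wilson intervals, and dashed lines mark the shares of other genes (39.5% and 29.5%). The blue intervals of Kv1 to Kv4, EAG and ERG, and KCNQ lie right of the blue line, which stands for other genes of all lengths (median 17.4 kb, against 300.3 kb for KCNQ and 156.1 kb for EAG and ERG), and for Kv1 to Kv4 both shares are 70.6%.

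The Kv1 to Kv4 genes encode the pore-forming subunits of delayed rectifier and A-type channels, and all 12 with a peak had one within 2 kb of a TSS. Kcnb2, a delayed rectifier, held 2 peaks, 1 of them with the motif at 236 bp upstream of a TSS (IDR 0.00613). Kcnc1, a channel of fast-spiking neurons, held 4 peaks, none with the exact motif. The lowest IDR, 2.6e-06, belonged to a peak in an exon 53 bp from an internal TSS, 1204 bp from the 5′ end of the gene. A promoter peak lay 66 bp upstream of that 5′ end (IDR 4.59e-05). Kcnc2 had 2 peaks (IDR 0.000562 and 0.00217) and Kcnc4 had 1 (0.000533).

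Other Kv1 to Kv4 genes had 1 or 2 peaks near a start, and were added to the named genes after their values were seen. Kcna1, an axonal low-threshold channel, had a promoter peak 60 bp upstream of a TSS (IDR 1.73e-07) and another with the motif 670 bp upstream (0.00019). Kcna4, an A-type channel, had 1 peak with the motif 10 bp from a TSS (8.84e-08), and Kcna3 had 1 without it at 118 bp (2.35e-06). The dendritic A-type channel genes Kcnd2 and Kcnd3 had promoter peaks at 691 bp (1.69e-07, with the motif) and 243 bp (1.46e-07, without). Kcnd3 had a second promoter peak 649 bp upstream of another of its TSSs (0.000527), 215.5 kb from the first peak. Kcnd1 had 1 peak in the 5′UTR (0.014), the weakest reproducibility of the group. Kcna2, Kcna5, Kcna6, Kcna7 and Kcna10 had no peak.

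Modifier Kv subunits form no channel alone and change the gating of other Kv subunits. Kcns2 held 3 peaks, of which the 2 within 2 kb, at 195 bp (IDR 6.01e-08) and 68 bp (1.98e-05) from a TSS, both carried the motif. Kcng1 had a 3′UTR peak (1.76e-06) and a promoter peak (0.00872), and Kcng2 a single intronic peak 13904 bp from its nearest TSS (3.86e-07). Kcns2 was thus the only modifier gene with the exact motif in a peak, and Kcns1, Kcns3 and Kcnv1 had 1 peak each with an IDR of 0.0101, 0.00155 and 0.000135. Kcnf1, Kcng3, Kcng4 and Kcnv2 had none.

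Among the EAG and ERG genes, Kcnh5 held 3 peaks, with the motif in the one 444 bp downstream of its TSS (IDR 3.46e-07). Kcnh1 also held 3, at the promoter (45 bp, 0.000445) and in introns 76361 and 87484 bp downstream (0.00608 and 0.0166). Kcnh4 held 2, in an exon 10072 bp from its TSS (5.06e-07) and at the promoter 68 bp upstream (1.46e-06). The motif was thus found in 1 of the 12 peaks of this subfamily. Kcnh3, Kcnh6, Kcnh7 and Kcnh8 had 1 peak each, and the Kcnh7 peak was intronic at 437040 bp from its TSS, nearer to the TSS of Gca. Kcnh2, which encodes the ERG channel of cardiac repolarisation, had none, and its nearest peak centre was 33087 bp from a TSS.

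The KCNQ genes held 14 peaks, 10 of them intronic. Kcnq3, a subunit of the M-channel that muscarinic receptors close, held 5 peaks over 185.1 kb. Its lowest IDR values came from the intronic peaks shown above at 36214 bp (4.26e-08) and 1449 bp (1.18e-07), whereas the promoter peaks 222 and 266 bp upstream of a TSS had 0.000271 and 8.52e-05. The motif occurred, in 2 copies, only in the first of these promoter peaks. Kcnq5 held 2 promoter peaks (0.000904 with the motif, 1.95e-05 without) and Kcnq1, the pore of a cardiac and epithelial channel, 2 intronic ones (5.67e-05 and 0.000211). Kcnq1 had no peak within 2 kb of a TSS.

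Inward rectifier genes held 17 peaks, 12 of them intronic. Kcnj6, a subunit of the G protein-gated channels that carry slow inhibition, held 5, all intronic and at least 25597 bp from every TSS of the gene, with an IDR from 6.02e-05 to 0.0125 and no exact motif. Kcnj3, its partner subunit, had none, and its nearest peak centre was at 677531 bp. Kcnj12, a strong rectifier, held 4 intronic peaks: the motif was in the one 559 bp from a TSS (1.19e-05), and the lowest IDR, 3.65e-07, was 2076 bp upstream of another TSS. Kcnj4, also a strong rectifier, held 2, with the motif in the one of IDR 6.84e-08 and none in the other (0.000714). Kcnj2, Kcnj5, Kcnj9, Kcnj10, Kcnj11 and Kcnj14 held 1 peak each, with an IDR from 2.66e-05 to 0.000906. Kcnj11, the pore of the ATP-sensitive channel, had its peak 9 bp from a TSS (0.000485), and this peak also counted for its regulatory subunit gene Abcc8. Kcnj1, Kcnj3, Kcnj8, Kcnj13, Kcnj15 and Kcnj16 had none.

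Two-pore domain channels carry leak currents. Kcnk3, an acid-sensitive leak channel, held 3 peaks: 2 of high IDR (0.0117 and 0.00895) and the exon peak with 2 motif copies shown above (0.000177). Kcnk4, a mechanically gated leak channel, held 4, but the one with the lowest IDR (1.41e-06) lay 136 bp from the TSS of Esrra and another lay 15 bp from that of Bad, and those at its own promoter had 0.00184 and 0.0102. Likewise the Kcnk6 peak of IDR 4.93e-08 lay 55 bp from the TSS of Yif1b and at −5759 bp from that of Kcnk6, while its second peak, in an exon, had 0.000139. For these genes the lowest IDR therefore belonged to a peak at a neighbour's start. Kcnk10 held 2 peaks (2.98e-07 and 1.37e-05), Kcnk2 2 intronic ones (5.24e-05 and 0.000263), and Kcnk9 and Kcnk16 1 each. Kcnk1, Kcnk5, Kcnk7, Kcnk12, Kcnk13, Kcnk15 and Kcnk18 had none.

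SK channels produce the afterhyperpolarisation that follows calcium entry. Kcnn1 had the lowest IDR of all 122 peaks, 3.39e-08 (rank 246 of 12014), at the upstream motif peak shown above, and a second peak further upstream of 0.0139. Kcnn2 had 2 promoter peaks, both with the motif, at 880 bp (4.7e-08) and 15 bp (8.78e-08) upstream of an internal TSS. They lay 289729 and 290936 bp from the 5′ end of the gene. Kcnn3 and Kcnn4 had none. The motif was thus in 3 of the 4 peaks of the subfamily, those 3 with an IDR below 1e-06. It was in 16.6% of all peaks and in 34.5% of those with an IDR of 1e-06 or less. The Kcnn1 peak of 0.0139 was nearer to the TSS of Ccdc124 (4607 bp).

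In the Slo family, Kcnma1, the pore of the large-conductance BK channel, held 5 peaks spread over 501.3 kb, with an IDR from 0.000181 to 0.00328 and the motif in the one of 0.00201. The sodium-activated channel genes had peaks at a promoter, Kcnt1 at 31 bp (2.3e-05, 2 motif copies) and 235 bp (0.00101) and Kcnt2 at 451 bp (4.07e-06, 1 copy). The Kcnt1 peak at 31 bp was downstream of an internal TSS, 14080 bp from the 5′ end of the gene. Kcnu1, the sperm channel, had none, with its nearest peak centre at 64532 bp. All 3 genes with a peak thus had one holding the motif.

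**Figure D3:**
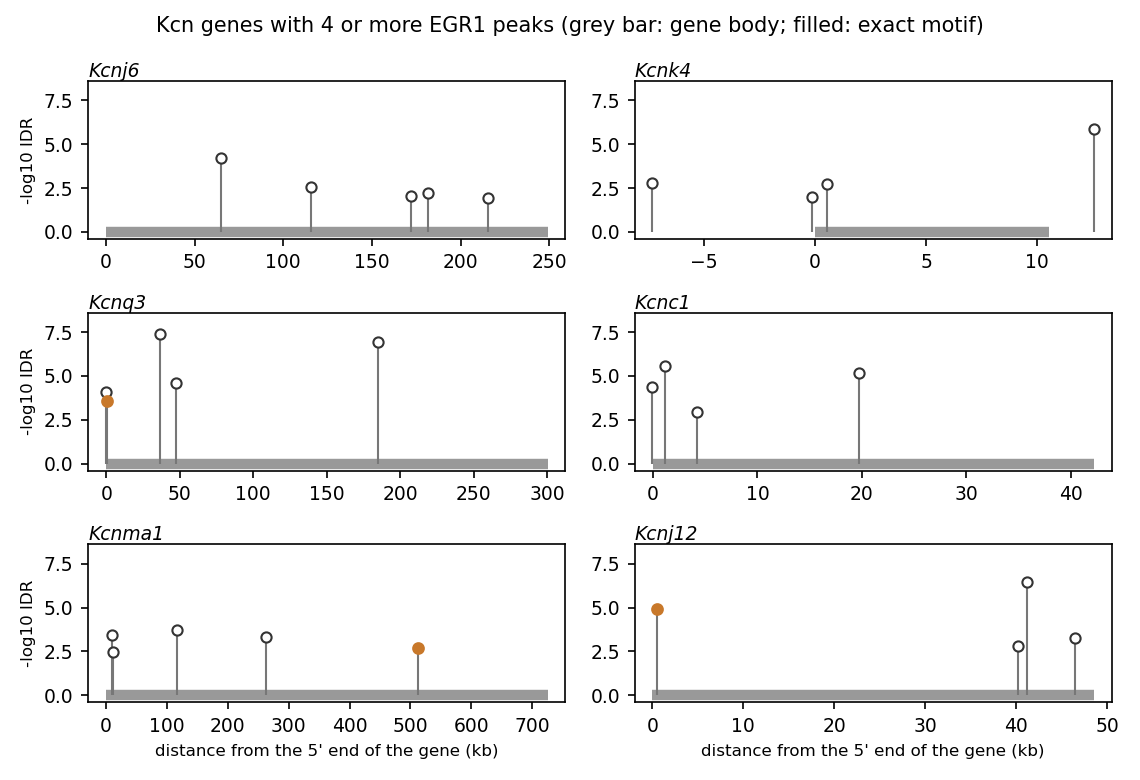
Each panel is a potassium channel gene with 4 or more EGR1 peaks, 6 genes of the 8 with so many, with the distance from the 5′ end of the gene in the direction of transcription (kb, horizontal axis), −log10 of the IDR (vertical axis), the gene body as a grey bar and peaks that hold the exact motif filled. The 5 peaks of Kcnj6 are all intronic, the peaks of lowest IDR in Kcnq3 lie inside the gene body, and that of Kcnk4 lies beyond the 3′ end.

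Auxiliary subunits bind the pore-forming ones and alter their surface level or gating. The beta subunit genes of Kv1 channels had 2 peaks at Kcnab2 (4.22e-08 in an intron and 3.04e-07 at the promoter, both without the exact motif) and 3 at Kcnab3, with the motif in the one 291 bp from a TSS (4.88e-05). The promoter peak of Kcnab2 was 106 bp from the TSS of Nphp4, and a Kcnab3 peak was 76 bp from that of Cntrob. Kcnip2, which encodes a calcium-binding subunit of the A-type channels, held 3 promoter peaks (0.00203, 0.000741 and 0.000149), none with the motif. Its relatives Kcnip1 and Kcnip3 had 2 peaks (8.76e-07 and 2.16e-06) and 1 (0.000113). Kcnmb4, the BK subunit of neurons, had 2 (0.00326 and 0.00766). Kcne2 and Kcnrg had 1 each, and both lay nearer to another gene's start (240 bp from Smim11 and 83 bp from Trim13). Kcnab1, Kcne1, Kcne1l, Kcne3, Kcne4, Kcnip4, Kcnmb1, Kcnmb2 and Kcnmb3 had none, and Kcnip4 was the longest such gene at 1135 kb.

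Of the 122 peaks, 63 lay within 2 kb of a TSS of the potassium channel gene and 59 beyond. Of the peaks assigned only to other genes, 7097 lay within 2 kb of a TSS of any of these genes and 2870 beyond. By position, 48 (39.3%) were intronic against 28.2% of peak-gene pairs of other genes, 43 (35.2%) were in promoters against 42.8%, and 15 (12.3%) were outside the gene against 19.6%. Other exons held 8 (6.56% against 4.15%), the 5′UTR 3 (2.46% against 3.75%) and the 3′UTR 5 (4.1% against 1.44%). The 14 peaks that were nearer to the TSS of another protein-coding gene than to one of the potassium channel gene were at 13 genes, and the 4 genes Kcne2, Kcnh7, Kcnj14 and Kcnrg had no other peak.

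The median IDR of the 122 peaks was 0.000163 (quartiles 2.97e-06 and 0.00153) against 0.000321 over all peaks, and 71.3% had an IDR of 0.001 or less against 59.6%. Within 2 kb of a TSS of the gene the median was 0.000177 (quartiles 3.34e-06 and 0.000823) at potassium channel genes and 8.48e-05 (5.02e-07 and 0.00232) at other genes. For the 59 peaks beyond 2 kb it was 0.000139 (4.63e-06 and 0.00295), but some of these lay at the start of another gene, such as the Kcnk6 peak near Yif1b. The 52 of them beyond 2 kb of every protein-coding TSS, a class added after seeing the data, had a median of 0.00016 (1.09e-05 and 0.00318) against 0.00123 (4.36e-05 and 0.00642) for the 2870 peaks of other genes beyond 2 kb of their TSSs. The quartile ranges overlapped in both classes, and the differences were not tested.

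**Figure D4:**
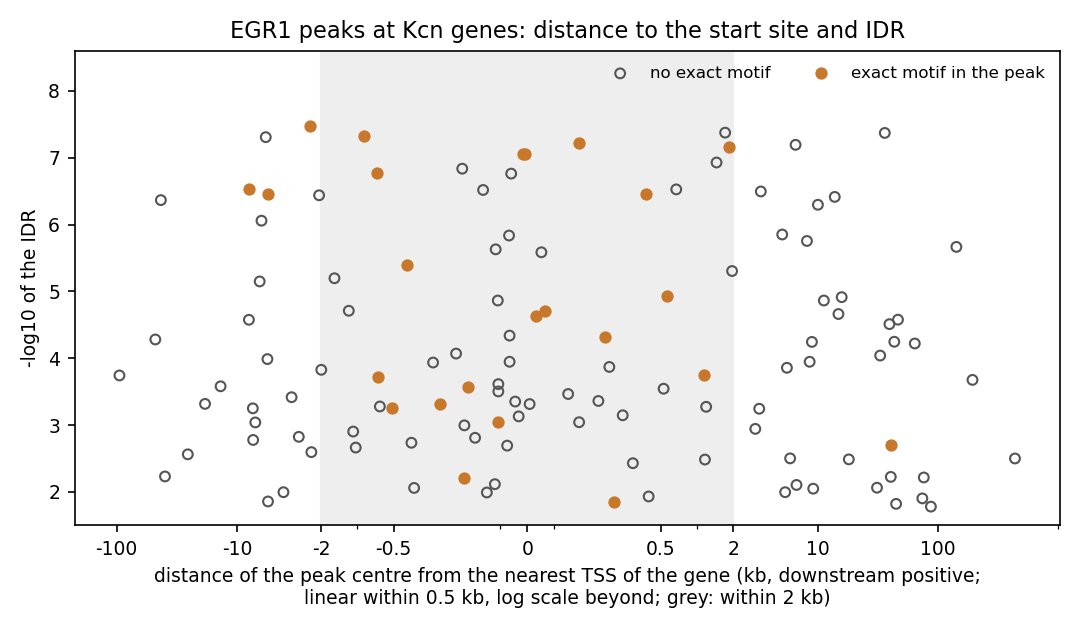
Each point is one of the 122 peaks, with its distance from the nearest TSS of the potassium channel gene (kb, linear within 0.5 kb and log scale beyond, downstream positive) and −log10 of its IDR, so that higher points are more reproducible, and filled points hold the exact motif. Filled points lie mostly in the grey band within 2 kb (20 of 24), while open points with −log10 IDR above 6 occur on both sides of it.

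The exact motif was present in 24 of the 122 peaks (19.7%, 13.6 to 27.6) against 16.6% of all peaks, and these 24 peaks belonged to 22 genes. It was in 20 of 63 peaks within 2 kb (31.7%, 21.6 to 44.0; 22.5% at other genes) and in 4 of 59 beyond (6.78%, 2.67 to 16.2). Of the 52 peaks beyond 2 kb of every protein-coding TSS, 3 held it (5.77%, 1.98 to 15.6), against 7.49% of the distal peaks of other genes. The form GCGGGGGCG was present in 20 and GCGTGGGCG in 4. Of the 1987 peaks with the motif in the whole list, 1487 held the first form and 526 the second. With 1 mismatch allowed the shares were 67.2% and 69.8% of all peaks. The proximal interval and that of the 52 distal peaks both included the share at other genes. The CpG ratio of the distal peaks was also low, with a median of 0.269 for the 52 against 0.638 within 2 kb, and the values at other genes were 0.291 and 0.770. In the RefSeq promoter windows of GRCm38.p6, 250 bases before to 50 after the start, the motif was in 4 of 94 windows (4.26%) from the 69 potassium channel genes that matched by symbol and in 4.82% of 20056 windows of other protein-coding genes.

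**Figure D5:**
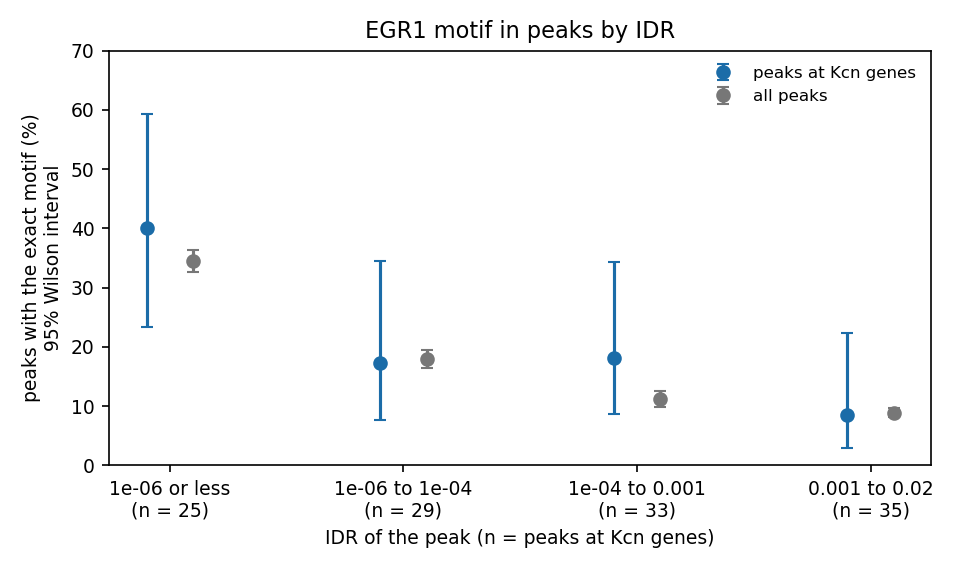
The share of peaks that hold the exact motif (percent, vertical axis) is plotted by class of IDR (horizontal axis, lowest at the left) for peaks at potassium channel genes (blue) and all peaks (grey), with 95% Wilson intervals. The share went from 40.0% of the 25 blue peaks at 1e-06 or less to 8.57% of the 35 above 0.001, and the grey points, 34.5% and 8.87% in these classes, lie within the blue intervals.

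Repeats made up at least 50% of the bases of 1 of the 122 peaks, against 1.57% of all peaks with sequence. Another 7 peaks had 30% or more. No repeat base was marked in 50 of the peaks (41.0%, against 45.6% of all peaks).

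The 35 potassium channel genes without a peak had their nearest peak centre between 10268 bp (Kcna7) and 677531 bp (Kcnj3) from a TSS. It was within 20 kb for 5 of them and beyond 100 kb for 8. A gene without a peak is one at which no peak passed the authors' IDR limit, and binding below that limit could not be seen in the list.

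Other genes of membrane potential were counted by the same rule. Of 31 listed (HCN channels, Dpp6 and Dpp10, Amigo1, sulfonylurea receptors, Kctd proteins, sodium pumps, ankyrins and others), 17 had a peak (54.8%, 37.8 to 70.8). For 11 of the 31 a peak lay within 2 kb of a TSS, against 29.5% of other protein-coding genes. The interval for any peak included the 39.5% of all other protein-coding genes and overlapped that of the potassium channel genes. The list holds long genes, up to 2245 kb (Cntnap2, no peak), and was not split by length. The only peak of Abcc8 is the Kcnj11 peak, so the list and the potassium channel genes are not fully separate. The ankyrins Ank2 and Ank3 held 4 peaks each. The pacemaker channel gene Hcn2 held 2 peaks (lowest IDR 7.39e-08). Amigo1, a membrane adhesion protein, held 1 peak (2.89e-08). It lay beyond 2 kb of every TSS of Amigo1, and its distance to the starts of other genes was not counted.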

How the data were processed

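EGR1 ChIP-seq of mouse frontal cortex was analysed from the peak list that the authors deposited, in which both replicates are merged. Per the study's methods, quality-trimmed reads were aligned by the authors to mm10 using Bowtie, SPP served as the peak caller and an IDR limit of 2% was applied. The submitters' processing notes name Bowtie2 2.2.9 and bedtools 2.26.0, and their part was not given in the sources used here. The deposited values are peak positions and the IDR, which was read like a q-value. It ranks reproducibility, judged by the authors on peak signal, and is not itself a measure of binding strength. The deposited list holds no counts or signal, so depth is unknown and no value per replicate was used. Positions were read as BED and are printed counted from 1. The 76 peaks on unplaced scaffolds were given no gene or sequence.

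Genes and TSSs (all transcripts) were from GENCODE M21, sequences and repeat marks from the RefSeq mm10 assembly. Subfamilies followed gene symbols. Distances run from the TSS to the peak centre, with upstream negative. Motif search, shares and intervals were computed in python 3.11.15 with numpy 2.4.6, pandas 2.3.3 and scipy 1.17.1, figures with matplotlib 3.10.9, and the counting was tested on simulated data. No statistical test was made. Named genes were, in each subfamily, the first 3 by number of peaks and then lowest IDR, all with 4 or more peaks and the 5 with the lowest IDR. Sequences shown were taken in order of IDR from motif peaks without UTR overlap, at most 2 per gene, with some left out. Some genes that the rule names are not reported here. The members and lists were chosen with earlier results of these data known. Other distances, TSS sets, IDR limits and motif rules were tried, and leaving out repeat peaks or peaks near any protein-coding TSS was added after seeing the data.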

Additional observations from a re-analysis of the deposited data

How the results depend on the processing

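Of 130 alternative values, 121 stayed within 1.5 times the main count or within its interval and 9 moved. SK and IK genes with a peak fell from 2 to 1 when the window was 2 kb or the gene body, and also with the gene body alone. The gene body alone left 5 inward rectifier genes, 10 kb of a TSS alone left 3 KCNQ genes, and an IDR of 0.001 or less left 4 EAG and ERG genes. The share of peaks with the motif moved from 19.7% to 67.2% with 1 mismatch, to 31.7% within 2 kb of a TSS, to 6.78% beyond, and to 5.77% beyond 2 kb of every protein-coding TSS, an alternative added after seeing the data. Potassium channel genes with a peak ranged from 43 (45.7%, against 23.8% of other genes) with the gene body alone to 59. They were 50 (53.2% against 28.8%) at an IDR of 0.001 or less and 55 (58.5% against 31.2%) when a peak counted only for the nearest protein-coding TSS. Leaving out peaks that are 50% or more repeats, also added after seeing the data, left 59 genes and 121 peaks. No replicate could be left out and no paired analysis was possible because the list holds merged peaks only.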

Other observations

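No peak was shared by potassium channel genes that lie near each other on a chromosome. Of those named here, only Kcnj9 with Kcnj10 and Kcnip1 with Kcnmb1 lay close enough for a shared peak under the 10 kb rule. The Kcna neighbours lay 61.94 to 105 kb apart, so for them, and for Kcnj5 and Kcnj1, a shared peak was not possible. Kcnj9 and Kcnj10, 11.89 kb apart, had 1 peak each. In the Kcna3, Kcna2 and Kcna10 group only Kcna3 had a peak, and of Kcna5, Kcna1 and Kcna6 only Kcna1, with 2. Kcnj5 had 1 peak and Kcnj1, 28.14 kb away, none. Kcnip1 had 2 peaks and the overlapping Kcnmb1 none.

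Among 5 antisense RNA genes with a Kcn symbol, 4 had peaks, and the share over other antisense genes was not counted. These genes are antisense to potassium channel genes, so their peaks, each of which also counted for such a gene, are no separate result. The Kcnd3os peak, the promoter peak of Kcnd3 (IDR 1.46e-07), was 112 bp from the TSS of the antisense gene. A Kcnab3os peak (IDR 4.96e-06), in the 3′UTR of Kcnab3, was 152 bp upstream of the antisense TSS. Kcnmb4os2 had 1 peak at 393 bp and Kcnq1ot1 1 at −6546 bp, and Kcnmb4os1 had none. ChIP-seq carries no strand, so a peak cannot be given to either gene of such a pair.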
